A study of Mus musculus with 12 samples.

Results

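The TRIM (tripartite motif) genes were read in mouse cortical neuronal cultures under lasting interferon-gamma exposure. They were taken as the rows of the deposited count table whose symbol is Trim followed by a number, with at least 10 counts in at least 6 of the 12 libraries. This gave 45 members out of 67 such symbols, in a table of 43629 genes. Of these, 7 lie in the chromosome 7 cluster (the Trim5, Trim6, Trim12, Trim30 and Trim34 genes), which has 11 symbols in the table, and 38 lie elsewhere. The count rule used all libraries together, so a gene that was high in only one group could still enter. No Control library reached 10 counts for 3 members (Trim5, Trim30a and Trim55), and 11 members reached 10 counts in fewer than 6 Control libraries. Just inside the rule stood Trim5, Trim14 and Trim55, each with 6 libraries at 10 counts. Just outside stood Trim43a with 5 libraries, and Trim43c and Trim69 with 4 libraries each.

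The 6 libraries labelled IFNG came from cultures with lasting interferon-gamma exposure, obtained with a lentivirus that overexpresses Ifng. The virus was added at 7 days in vitro and the cultures were harvested 10 days later. The 6 libraries labelled Control were the comparison, but every sample carries the same treatment text. That text does not tell what the Control cultures were transduced with, and the labels name no strain, age or promoter. Poly(A) RNA was sequenced, and the labels call all 12 samples a neuronal culture from cortex.

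TRIM proteins carry a RING finger, B-box zinc fingers and a coiled coil, followed by a C-terminal part that differs between members and binds their targets. Most are E3 ubiquitin ligases, which pass ubiquitin from an E2 enzyme to a target protein. Several act in the response to viruses, as restriction factors or as regulators of the RNA and DNA sensing pathways, while others serve microtubules, axons, muscle or chromatin. Interferon-gamma signals through its receptor and the JAK kinases to the nucleus, where gamma-activated sites and interferon-stimulated response elements in promoters serve its target genes. IRF proteins bind the interferon-stimulated response elements.

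Promoters are shown first for the 7 cluster members, and for Trim30c and Trim34b, cluster copies with few counts, because copies that lie side by side differ in these bases. Trim21 and Trim26, which were higher outside the cluster, are added because their promoters held the same motif. Each stretch runs 5′ to 3′ on the gene's own strand, from 100 bases before to 50 bases after the RefSeq start (200 bases before for Trim26 and Trim30c), in build GRCm38.p6. Capitals mark the core of the interferon-stimulated response element, which is GAAA, any 2 bases and GAAA again, or on the other strand TTTC, any 2 bases and TTTC, with overlapping matches joined. In Trim30c they mark instead TTCNNNGAA, the gamma-activated site, which reads the same on both strands.
Trim30a (chr7:104465144-104465293, minus strand): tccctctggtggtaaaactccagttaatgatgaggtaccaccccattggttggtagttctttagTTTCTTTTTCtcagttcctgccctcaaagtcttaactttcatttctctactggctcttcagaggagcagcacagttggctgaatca
Trim30d (chr7:104507800-104507949, minus strand): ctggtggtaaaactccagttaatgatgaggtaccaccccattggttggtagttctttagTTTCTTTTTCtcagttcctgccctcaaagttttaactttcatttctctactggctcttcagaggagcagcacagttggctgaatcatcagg
Trim30c (chr7:104400729-104400978, minus strand): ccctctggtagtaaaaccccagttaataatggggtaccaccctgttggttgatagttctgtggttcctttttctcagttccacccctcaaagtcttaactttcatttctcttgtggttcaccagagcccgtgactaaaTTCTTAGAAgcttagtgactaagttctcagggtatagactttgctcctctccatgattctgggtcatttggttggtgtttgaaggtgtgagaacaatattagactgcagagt
Trim12a (chr7:104315446-104315595, minus strand): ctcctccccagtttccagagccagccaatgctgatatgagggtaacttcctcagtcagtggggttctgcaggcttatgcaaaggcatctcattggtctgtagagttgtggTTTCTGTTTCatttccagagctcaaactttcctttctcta
Trim12c (chr7:104353300-104353449, minus strand): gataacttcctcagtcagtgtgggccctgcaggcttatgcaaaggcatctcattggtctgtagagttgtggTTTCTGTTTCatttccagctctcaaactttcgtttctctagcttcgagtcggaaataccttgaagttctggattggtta
Trim5 (chr7:104288057-104288206, minus strand): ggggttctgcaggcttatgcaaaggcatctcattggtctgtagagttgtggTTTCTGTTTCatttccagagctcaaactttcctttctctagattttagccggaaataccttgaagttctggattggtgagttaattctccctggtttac
Trim34a (chr7:104244357-104244506, plus strand): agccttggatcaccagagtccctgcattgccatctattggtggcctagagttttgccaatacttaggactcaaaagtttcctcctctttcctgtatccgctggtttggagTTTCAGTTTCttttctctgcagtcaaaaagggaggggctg
Trim34b (chr7:104329371-104329520, plus strand): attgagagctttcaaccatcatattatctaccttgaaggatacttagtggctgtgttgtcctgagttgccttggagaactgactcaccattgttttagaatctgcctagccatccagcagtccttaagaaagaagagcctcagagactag
Trim6 (chr7:104218695-104218844, plus strand): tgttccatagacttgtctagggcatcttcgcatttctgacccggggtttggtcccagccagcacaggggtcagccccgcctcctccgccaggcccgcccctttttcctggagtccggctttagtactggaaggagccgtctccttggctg
Trim21 (chr7:102565433-102565582, minus strand): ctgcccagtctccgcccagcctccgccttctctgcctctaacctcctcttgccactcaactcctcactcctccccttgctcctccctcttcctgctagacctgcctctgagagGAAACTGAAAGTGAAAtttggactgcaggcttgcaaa
Trim26 (chr17:36836946-36837195, plus strand): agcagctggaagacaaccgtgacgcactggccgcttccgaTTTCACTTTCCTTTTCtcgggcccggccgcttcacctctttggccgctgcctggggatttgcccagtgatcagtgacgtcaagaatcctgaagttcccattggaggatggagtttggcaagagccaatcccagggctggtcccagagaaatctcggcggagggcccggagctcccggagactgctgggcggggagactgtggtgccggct
In these sequences Trim30a and Trim30d carry the same core, TTTCTTTTTC, with its first base at -36 and -41 from the start. Trim30a has 2 starts in the RefSeq table, and at the other one the same 10 bases begin at 3. Trim30c has the corresponding stretch before the shared flank TCAGTTCC, with first base at -137, and there it differs from Trim30a by T3C, counted from 1 at the 5′ end of the 10 bases, which breaks the match. Trim12a, Trim12c and Trim5 share one core, TTTCTGTTTC, with its first base at 11, -29 and -49 from the start. Trim34a has TTTCAGTTTC with its first base at 11, while Trim34b and Trim6 have neither motif in the window. In Trim21 the matches begin at 14 and 20, and in Trim26 at -160 and -154.

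The search over whole promoters of 300 bases (250 before to 50 after each start) covered 32851 promoters, of which 3.44% held the response element core and 8.3% the gamma-activated site. RefSeq promoters were found for 34 of the 45 members, and Trim14, Trim36 and Trim55 are the members called below without an entry. In the cluster, 7 of the 8 promoters of members held the response element core, which is 6 of 7 genes, and 0 held the gamma-activated site. Of the 3 cluster genes under the count rule with a promoter, 0 held the core and 1, Trim30c, held the gamma-activated site. Among members outside the cluster, 2 of the 3 promoters of genes called higher held the core (Trim21 and Trim26, not Trim56). Among the 36 promoters of the other members, 1 held it (Trim2), which is 2.78%. A match is only a string of letters, and binding was not measured.

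Library totals ran from 13875435 to 34239380 counts. Levels are given as CPM, a gene's counts relative to the library total after TMM scaling. Ifng itself was at 11.1 ± 4.41 CPM in IFNG libraries, against 0.0686 ± 0.0778 CPM in Control libraries (mean ± SD, n = 6 each), with a log2 fold change of 7.27 ± 0.48 (SE) and an adjusted p of 3.45e-10. Adjusted p-values come from the quasi-likelihood test of edgeR, corrected over 15241 genes by Benjamini-Hochberg. Nothing in the labels ties the libraries of a group to separate cultures or animals, and the spread that the p-values are built on may therefore be technical. All 12 neuronal markers were detected, with a summed level of 4285 to 5442 CPM in IFNG libraries, against 5708 to 6331 CPM in Control libraries, and 5 of 12 were lower and 0 higher. All 10 tested astrocyte markers out of 12 were higher, by 1.35 at the median on the log2 scale, with a summed level of 4219 to 6871 CPM in IFNG libraries, against 2169 to 2355 CPM in Control libraries. Microglial markers summed to 37.7 to 53.4 CPM in IFNG libraries, against 27.6 to 35.2 CPM in Control libraries, with 4 of 14 tested and 2 of them higher. Oligodendrocyte lineage markers summed to 317.4 to 360.8 CPM in IFNG libraries, against 298.8 to 402.2 CPM in Control libraries (1 higher and 2 lower of 9 tested), and endothelial and mural markers to 45.8 to 57.2 CPM in IFNG libraries, against 30.2 to 51.4 CPM in Control libraries (1 higher of 5 tested, with Cldn5 at 0). These libraries are bulk RNA, in which fewer cells of a type and less RNA per cell cannot be told apart.

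Of the 45 TRIM members, 12 were higher and 5 lower in IFNG, and 28 did not pass the test. Over all genes tested, 24.1% passed, 14.3% higher and 9.79% lower, against 37.8% of the TRIM members, 26.7% higher and 11.1% lower. The rises fell unevenly over the family, with 7 of the 7 cluster members higher and 5 of the 38 others. The other members' share of rises, 13.2%, lies near that of all genes. All 12 rises were larger than 2-fold, a size that 6.69% of all genes tested reached, and in 11 of them the IFNG libraries lay wholly above the Control libraries, as in 8.75% of all genes tested. Of the 5 falls, 0 had groups that did not overlap, against 4.09% of all genes tested. Members that entered the count rule through the IFNG libraries alone had to be higher. Trim14 and Trim30d entered with only 1 Control library at 10 counts. Among cluster members, only Trim12a had 10 counts in all 6 Control libraries. The rule left out 4 cluster symbols, among them Trim30e-ps1, with 36 counts in IFNG and 35 in Control libraries. The count of rises, in the cluster too, is therefore partly set by the rule and is a description of the family.

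**Figure D1:**
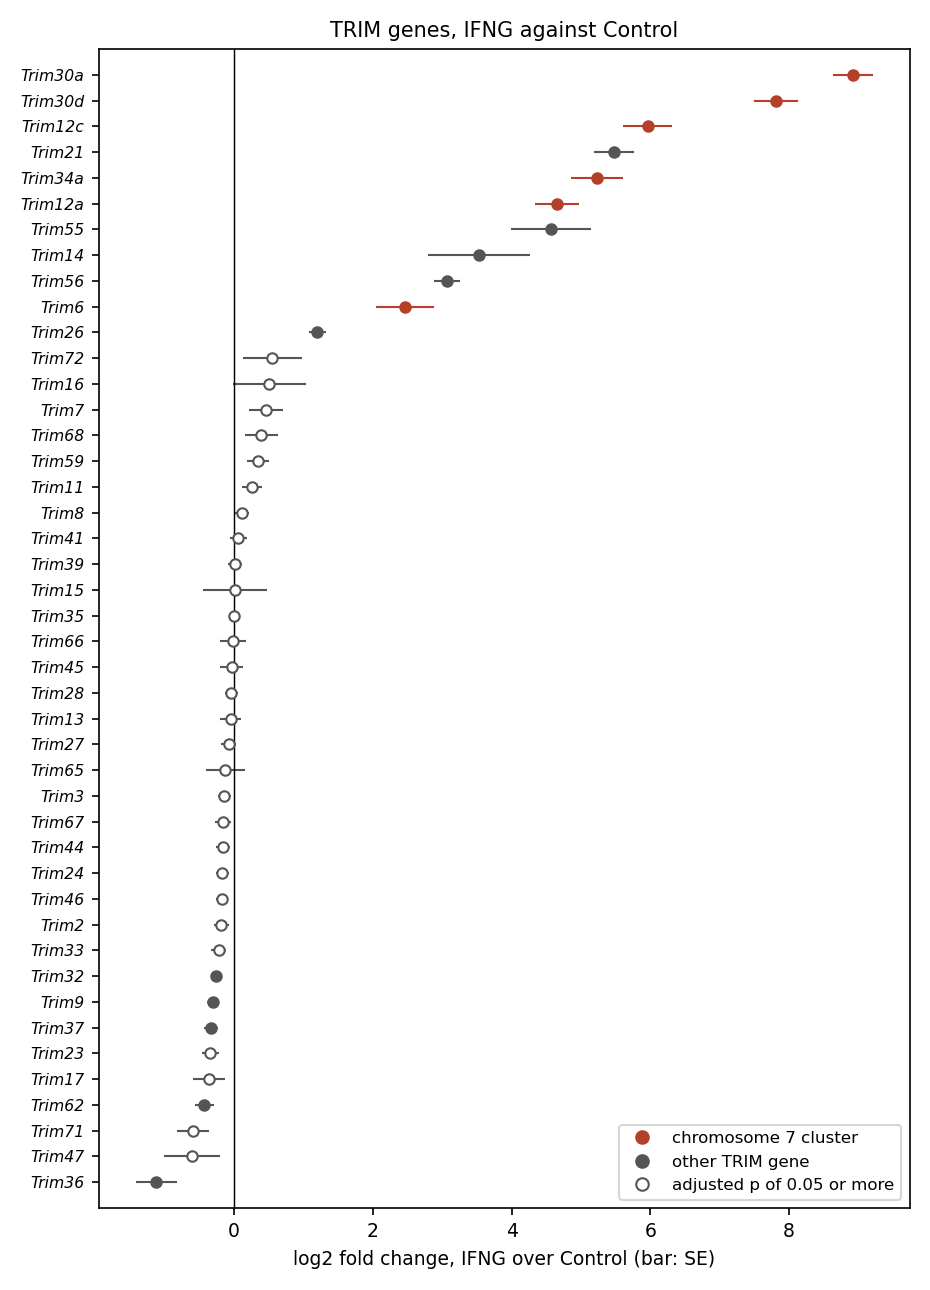
Log2 fold change of IFNG over Control for the TRIM members, ordered by size, with bars of 1 SE and the chromosome 7 cluster in its own colour, open circles for members that did not pass, and without Trim5, which had 0 counts in all Control libraries. The cluster members take most of the upper end, from 2.46 for Trim6 to 8.92 for Trim30a, and the members that did not pass lie between -0.61 and 0.55.

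The chromosome 7 cluster spans 316.6 kb (GRCm38 chromosome 7, 104218793 to 104535361). As a whole it held 308.1 ± 87.5 CPM in IFNG libraries, against 4.04 ± 1.61 CPM in Control libraries (mean ± SD, n = 6 each). The cluster members took 9.84 ± 2.89% of all counts on TRIM members in IFNG libraries and 0.135 ± 0.0542% in Control libraries. The median log2 fold change of its 7 members was 5.96, also with Trim5 set at its lower bound, beside -0.02 for all genes tested and -0.05 for the 38 other members. Astrocyte markers, with a median of 1.35, moved in the same direction, and their part in the result was not tested.

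Trim30a (ENSMUSG00000030921, chromosome 7, 104409025 to 104465193, minus strand) encodes a mouse TRIM protein known from macrophages as a brake on NF-kB signalling by Toll-like receptors. It had a lowest value of 62.5, a median of 130.2 and a highest value of 144.5 CPM in IFNG libraries, against 0.106, 0.262 and 0.328 CPM in Control libraries. Every IFNG library was therefore far above every Control library, and IFNG 3 and IFNG 1 were the low ones. The log2 fold change was 8.92 ± 0.29 (adjusted p = 4.62e-15), on 14787 counts in IFNG and 25 counts in Control libraries.

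Trim30d (ENSMUSG00000057596, 104470014 to 104507849, minus strand), its neighbour and close copy, showed the same order of libraries at its low end. Its lowest, median and highest values were 37.2, 75.3 and 94.5 CPM in IFNG libraries, against 0.0528, 0.279 and 0.581 CPM in Control libraries, with no overlap. The log2 fold change was 7.81 ± 0.32 (adjusted p = 1.19e-13). Per kilobase of exon, Trim30d stood at 0.668 ± 0.0687 of the Trim30a level in IFNG libraries (SD, n = 6), with a range of 0.546 to 0.741. The remaining Trim30 copies had few counts. Trim30b had 38 counts in IFNG and 0 in Control libraries, Trim30c had 10 counts in IFNG and 0 in Control libraries, and the pseudogene Trim30e-ps1 had 36 counts in IFNG and 35 in Control libraries. Against a floor of 3 counts over the Control group, Trim30b was at least 11.03-fold higher and Trim30c at least 2.90-fold higher. IFNG 2 held 24 of the 38 counts of Trim30b and 6 of the 10 counts of Trim30c, and without it the bounds were 5.57-fold and 1.59-fold.

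Trim12a, Trim12c and Trim5 are the mouse relatives of primate TRIM5, a restriction factor that recognises retroviral capsids. Trim12c (ENSMUSG00000057143, 104338754 to 104353362, minus strand) had lowest, median and highest values of 32.3, 54.1 and 71.3 CPM in IFNG libraries, against 0.0547, 0.856 and 1.79 CPM in Control libraries. Trim12a (ENSMUSG00000066258, 104299894 to 104315466, minus strand) had 19.6, 42.1 and 51.3 CPM in IFNG libraries, against 0.581, 1.13 and 3.11 CPM in Control libraries. Neither gene's groups overlapped, and IFNG 3 was the lowest IFNG library for both. The log2 fold changes were 5.96 ± 0.35 for Trim12c (adjusted p = 5.53e-11) and 4.65 ± 0.32 for Trim12a (adjusted p = 5.93e-10). Per kilobase of exon, Trim12c stood at 2.14 ± 0.45 times the Trim12a level in IFNG libraries (SD, n = 6).

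Trim5 (ENSMUSG00000060441, 104263386 to 104288094, minus strand) was not seen in any Control library. It had 2.04, 4.15 and 5.34 CPM as lowest, median and highest values in IFNG libraries, against 0 in all Control libraries. With 481 counts in IFNG and 0 in Control libraries, it was at least 139.6-fold higher against a floor of 3 counts over the Control group (adjusted p = 1.52e-07). Its level per kilobase in IFNG libraries was 0.0713 ± 0.0138 of that of Trim12c (SD, n = 6).

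Trim34a (ENSMUSG00000056144, 104244457 to 104262234, plus strand) and Trim6 (ENSMUSG00000072244, 104218793 to 104235152, plus strand) lie at one end of the cluster and have human counterparts of the same names. Human TRIM6 is known to make free ubiquitin chains that aid the interferon response. Trim34a had lowest, median and highest values of 15.8, 23.8 and 33.1 CPM in IFNG libraries, against 0, 0.671 and 1.36 CPM in Control libraries. Trim6 had 1.34, 3.25 and 3.33 CPM in IFNG libraries, against 0.194, 0.518 and 0.791 CPM in Control libraries. Groups did not overlap for either gene, and Trim6 had the smallest rise of the cluster. The log2 fold changes were 5.23 ± 0.37 for Trim34a (adjusted p = 1.2e-09) and 2.46 ± 0.42 for Trim6 (adjusted p = 1.68e-04). Trim34b, the copy of Trim34a, had 16 counts in IFNG and 0 in Control libraries and was at least 4.64-fold higher against the same floor. IFNG 3 held 7 of those 16 counts, and without it the bound was 3.07-fold.

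**Figure D2:**
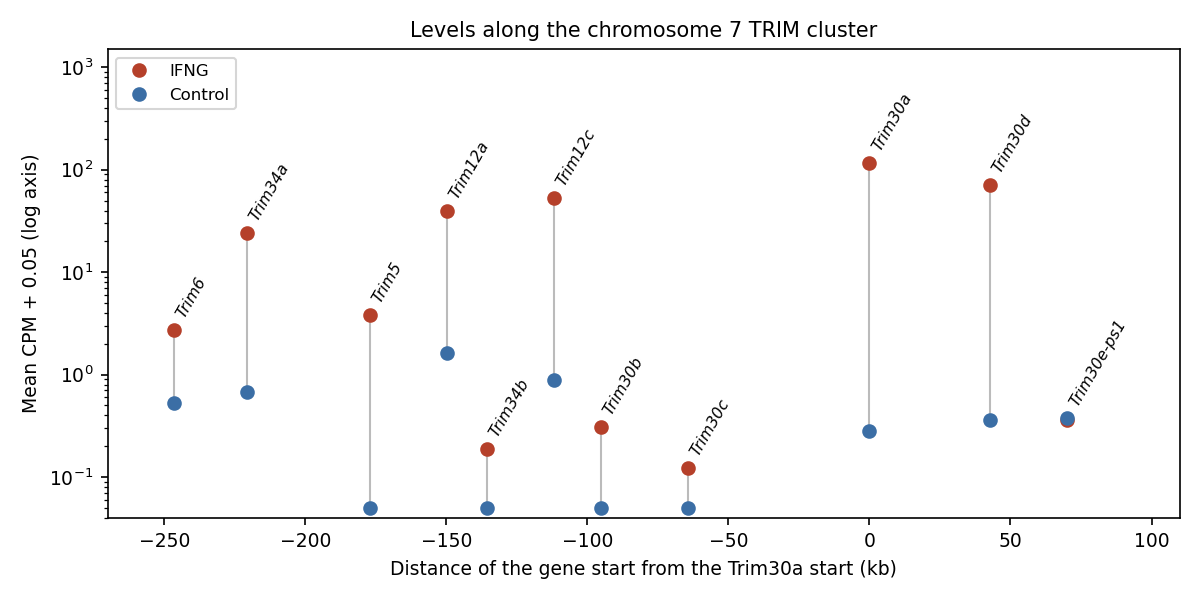
Mean CPM + 0.05 (log axis) of the TRIM genes on this stretch of chromosome 7 against distance in kilobases from the start of Trim30a, with IFNG and Control points for each gene. The 7 cluster members lie between -246.4 and 42.66 kb and are higher in IFNG, while the copies Trim34b, Trim30b and Trim30c between them stay at or under 0.256 CPM.

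How the reads were divided among these copies is uncertain, because the counting method is not given in the sources used here. Of the distinct 50-base windows in the annotated transcripts of Trim34a, 59.7% also occur in another gene, 39.8% in Trim34b and 20.2% in ENSMUSG00000111737. For Trim5 the share was 36.6% and for Trim12c 33.7%, mostly in each other. Trim12a (10.5%), Trim30d (7.49%), Trim30a (5.98%) and Trim6 (1.5%) share less. Sums over copies do not depend on how reads were divided within each sum, though Trim5 and ENSMUSG00000111737 stand outside them. Reads dropped for matching more than 1 gene would be missing from the sums too. Trim12a with Trim12c held 92.4 ± 24.6 CPM in IFNG libraries, against 2.395 ± 1.29 CPM in Control libraries. Trim34a with Trim34b held 24.0 ± 6.94 CPM in IFNG libraries, against 0.628 ± 0.478 CPM in Control libraries, and the 5 Trim30 genes held 186.0 ± 56.8 CPM in IFNG libraries, against 0.860 ± 0.362 CPM in Control libraries (mean ± SD, n = 6 each). Fitted as single rows, the log2 fold changes were 5.27 ± 0.28 for Trim12 (adjusted p = 1.01e-11), 5.24 ± 0.37 for Trim34 (adjusted p = 1.12e-09) and 7.74 ± 0.28 for Trim30 (adjusted p = 1.77e-14).

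Within the IFNG group the same libraries were low for most cluster genes. IFNG 3 was the lowest library for 5 of the 7 members and among the lower pair for all 7, and IFNG 1 was among the lower pair for 6 of the 7. The summed cluster level was 228.4 CPM in IFNG 1, 338.9 in IFNG 2, 171.3 in IFNG 3, 351.3 in IFNG 4, 368.2 in IFNG 5 and 390.5 CPM in IFNG 6. Ifng stood at 7.88 CPM in IFNG 1, 12.6 in IFNG 2, 4.98 in IFNG 3, 12.2 in IFNG 4, 17.9 in IFNG 5 and 10.8 CPM in IFNG 6. IFNG 3 and IFNG 1 were thus the lower pair in both measures, while IFNG 5 had the most Ifng and IFNG 6 the most cluster RNA. No correlation was tested over these 6 libraries.

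Outside the cluster, 5 members were higher. Trim21 (ENSMUSG00000030966, chromosome 7, 102557921 to 102565486, minus strand) encodes the cytosolic antibody receptor, which binds antibody-coated virus and targets it for degradation. Its lowest, median and highest values were 43.3, 56.7 and 59.6 CPM in IFNG libraries, against 0.622, 0.672 and 2.71 CPM in Control libraries. The groups were far apart, with a log2 fold change of 5.48 ± 0.29 (adjusted p = 6.14e-12). Trim21 lies on the same chromosome as the cluster, 1900 kb from the start of Trim30a, and its neighbour Trim68 did not pass (4.99 ± 1.34 CPM in IFNG libraries, against 3.79 ± 0.945 CPM in Control libraries, adjusted p = 0.251). Of the 6 members on chromosome 7 outside the cluster, 1 was higher, beside 14.3% of all genes tested. So few genes do not set these members apart from that share.

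Trim56 (ENSMUSG00000043279, chromosome 5, 137105644 to 137116209, minus strand) is known as an antiviral ligase that acts in nucleic acid sensing. Its lowest, median and highest values were 37.8, 52.8 and 67.4 CPM in IFNG libraries, against 4.13, 6.15 and 8.81 CPM in Control libraries. All IFNG libraries were above all Control libraries, with a log2 fold change of 3.07 ± 0.18 (adjusted p = 5.96e-11). Trim26 (ENSMUSG00000024457, chromosome 17, 36837134 to 36859398, plus strand), which is known to act on antiviral signalling, had 39.2, 51.5 and 58.5 CPM in IFNG libraries, against 18.6, 20.9 and 27.9 CPM in Control libraries. It was the smallest of the 12 rises and still had groups that did not overlap (log2 fold change 1.20 ± 0.12, adjusted p = 2.55e-07). Trim39 and Trim15 are other TRIM genes on chromosome 17, and Trim15 is the nearer to Trim26. They had log2 fold changes of 0.02 ± 0.10 (adjusted p = 0.935) and 0.01 ± 0.46 (adjusted p = 0.990). Trim15 had only 92 counts in IFNG and 78 in Control libraries, so its value is uncertain.

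Trim55 (ENSMUSG00000060913, chromosome 3, 19644474 to 19692421, plus strand) encodes a protein of muscle sarcomeres and microtubules, known as MURF-2. It had 2.32, 2.64 and 5.66 CPM as lowest, median and highest values in IFNG libraries, against 0, 0.111 and 0.339 CPM in Control libraries. Its level was low but the groups did not overlap (380 counts in IFNG and 14 counts in Control libraries, log2 fold change 4.57 ± 0.58, adjusted p = 5.05e-06).

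Trim14 (ENSMUSG00000039853, chromosome 4, 46493781 to 46536141, minus strand), which lacks a RING finger and is known as an adaptor in antiviral signalling through MAVS, was the rise whose groups overlapped. Its lowest, median and highest values were 0.271, 2.74 and 3.31 CPM in IFNG libraries, against 0, 0.0826 and 0.848 CPM in Control libraries. The overlap came from IFNG 3, at the low end of its group, and Control 5, which stood above the other Control libraries. The log2 fold change was 3.54 ± 0.73 (adjusted p = 0.00125), and without Control 5 it was 5.01. The exons of Trim14 overlap those of Nans on the opposite strand over 1356 bases, and reads of that stretch may not have been told apart. Nans itself was at 0.96-fold in IFNG over Control (adjusted p = 0.851).

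**Figure D3:**
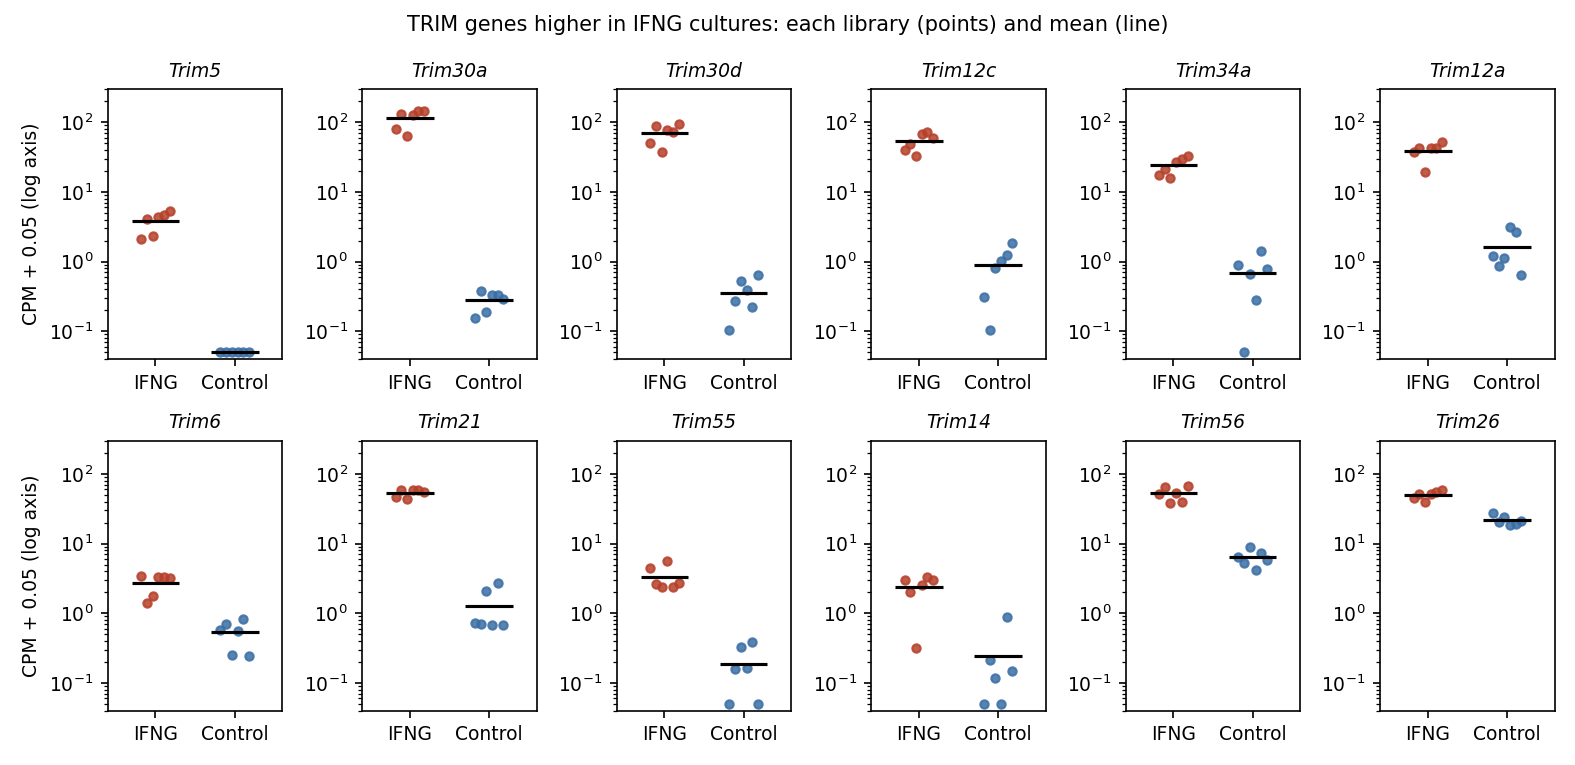
CPM + 0.05 in every library (log axis) for the 12 TRIM members that were higher in IFNG, with IFNG left of Control for each gene. The groups are apart for all but Trim14, where IFNG 3 (0.271 CPM) lies below Control 5 (0.848 CPM), and Trim5 is at 0 in all Control libraries.

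The 5 falls were each smaller in log2 size than any of the 12 rises. Trim36 (ENSMUSG00000033949), a microtubule-associated ligase, had the largest fall. Its lowest, median and highest values were 1.12, 5.71 and 7.88 CPM in IFNG libraries, against 7.06, 12.2 and 14.4 CPM in Control libraries, and only IFNG 1 reached above Control 4. The log2 fold change was -1.12 ± 0.30 (adjusted p = 0.00848).

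Trim9 (ENSMUSG00000021071), a brain-enriched ligase that takes part in axon branching, had 191, 240.3 and 293 CPM as lowest, median and highest values in IFNG libraries, against 287, 296 and 315 CPM in Control libraries. Only IFNG 3 reached into the Control range (log2 fold change -0.30 ± 0.09, adjusted p = 0.0192). Trim37 (ENSMUSG00000018548), a MATH-domain ligase known for its part in centriole control, had 144, 203 and 221 CPM in IFNG libraries, against 216, 245 and 279 CPM in Control libraries (log2 fold change -0.34 ± 0.10, adjusted p = 0.0198). Trim32 (ENSMUSG00000051675), an NHL-repeat ligase mutated in a human limb-girdle muscular dystrophy, had 150.4, 160.2 and 186 CPM in IFNG libraries, against 178, 195 and 206 CPM in Control libraries (log2 fold change -0.26 ± 0.08, adjusted p = 0.0224). In both, IFNG 3 was again the highest IFNG library and the one that reached into the Control range. Trim62 (ENSMUSG00000041000), a PRY-SPRY ligase, had 25.8, 37.4 and 47.2 CPM in IFNG libraries, against 44.6, 49.4 and 53.7 CPM in Control libraries (log2 fold change -0.43 ± 0.14, adjusted p = 0.0303), and there IFNG 1 and IFNG 2 reached into the Control range.

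The falls other than that of Trim36 lay near the threshold, and their calls moved with single libraries and with the scaling. IFNG 5 was the lowest IFNG library for 4 of the 5 genes, and the 5 calls held without it. The number of members called lower was 2 without IFNG 6, 2 without Control 6 and 3 without Control 2, and 1, Trim36, when library totals left out the genes called higher. The log2 fold changes moved less than the calls. As each library was left out they ran from -0.51 to -0.34 for Trim62, from -0.37 to -0.25 for Trim37, from -0.37 to -0.23 for Trim9 and from -0.30 to -0.23 for Trim32. Neuronal markers fell beside them (5 of 12, with summed levels of 4285 to 5442 CPM in IFNG libraries, against 5708 to 6331 CPM in Control libraries), and their part in the falls was not tested.

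**Figure D4:**
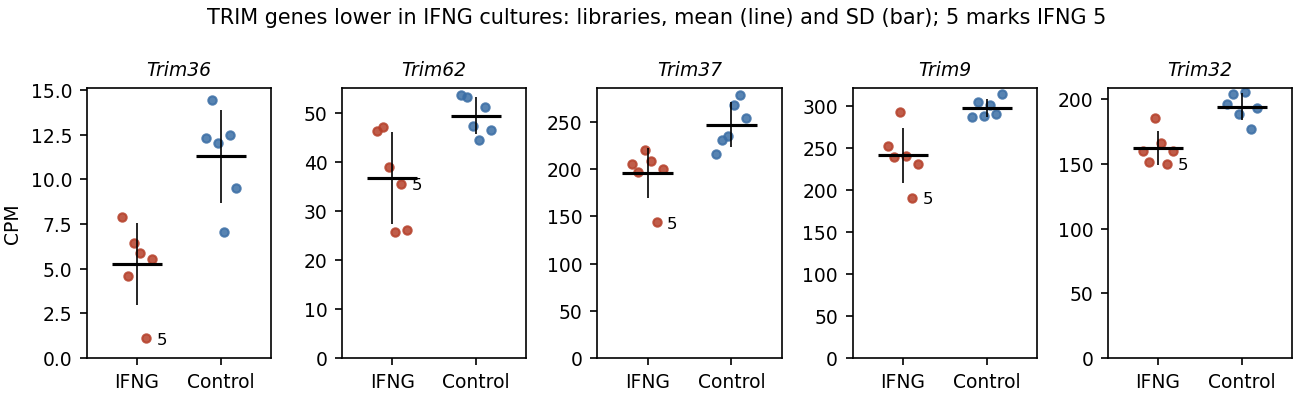
CPM in every library for the 5 TRIM members that were lower in IFNG, with IFNG left of Control and group means as lines. In each gene the groups overlap, and IFNG 5 is the lowest IFNG library for all but Trim62.

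The 28 members that did not pass had log2 fold changes from -0.61 (Trim47) to 0.55 (Trim72), 10 above 0 and 18 below. They hold most of the TRIM RNA, with 2029 ± 107.4 CPM in IFNG libraries, against 2173 ± 44.0 CPM in Control libraries (mean ± SD, n = 6 each). Trim28, the corepressor also known as KAP1, had 265 ± 29.9 CPM in IFNG libraries, against 273 ± 25.5 CPM in Control libraries (log2 fold change -0.04 ± 0.09, adjusted p = 0.784). Trim35 had 279.6 ± 15.4 CPM in IFNG libraries, against 279.7 ± 9.36 CPM in Control libraries (adjusted p = 0.997). The groups of both genes lay over each other. Trim44, an atypical member without a RING finger, had 341 ± 52.8 CPM in IFNG libraries, against 381 ± 20.6 CPM in Control libraries (log2 fold change -0.16 ± 0.10, adjusted p = 0.264). Trim46, which organises microtubules at the axon initial segment, had 154 ± 6.88 CPM in IFNG libraries, against 174 ± 12.1 CPM in Control libraries (log2 fold change -0.18 ± 0.08, adjusted p = 0.108). Trim3, an NHL-repeat ligase of neurons, had 132 ± 8.70 CPM in IFNG libraries, against 146 ± 18.02 CPM in Control libraries (log2 fold change -0.14 ± 0.09, adjusted p = 0.300). These fits do not show that the genes stayed equal. Nearest to the threshold was Trim23, which carries an ADP-ribosylation factor-like domain, with a log2 fold change of -0.34 ± 0.13 and an adjusted p of 0.0566.

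Classes of C-terminal part were taken from lists of known genes, and no protein sequence was checked for these domains. The members listed as PRY-SPRY, among them the whole cluster, had 10 higher and 1 lower of 24 tested. Of the 10 rises, 7 were the cluster. Outside it 3 of 17 were higher (Trim14, Trim21 and Trim26), which is 17.6%, beside 14.3% of all genes tested. Of 7 tested members with a COS box, which binds microtubules, 2 were higher (Trim55 and Mid1) and 2 lower (Trim36 and Trim9). These 7 include Mid1 and Mid2, which are TRIM proteins under other symbols. Trim55 entered the count rule through the IFNG libraries alone. Of the 4 with NHL repeats, 1 was lower (Trim32) and 0 higher. The 4 with a PHD finger and bromodomain, which work at chromatin (Trim24, Trim28, Trim33 and Trim66), had 0 calls in either direction, with log2 fold changes from -0.22 to -0.02. Trim37 was the single MATH-domain member and fell, while Trim23, Trim13, Trim59 and Trim45 did not pass. Of all genes tested, 14.3% were higher and 9.79% lower. Classes of so few genes are too small to be set apart from these shares.

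Levels can be compared between genes per kilobase of exon, and on that scale the rises changed the order of the family. The top of the order was shared by Trim28 (63.7 ± 7.20), Trim35 (60.5 ± 3.34) and Trim44 (60.4 ± 9.35 CPM per kb) in IFNG libraries. In Control libraries the same genes led, with Trim28 at 65.6 ± 6.14, Trim35 at 60.6 ± 2.03 and Trim44 at 67.5 ± 3.64 CPM per kb (SD, n = 6 each). These neighbours lay within their spread of one another in IFNG libraries. Trim30a held rank 8 of 45 in IFNG libraries at 28.0 ± 8.55 CPM per kb and rank 42 in Control libraries at 0.0559 ± 0.0216 CPM per kb. In IFNG libraries its level lay within its spread of Trim3 (28.9 ± 1.90 CPM per kb) and Trim37 (27.2 ± 3.73 CPM per kb). Trim30d stood at rank 10 in IFNG and 41 in Control libraries, Trim21 at rank 13 in IFNG and 35 in Control, and Trim12c at rank 14 in IFNG and 39 in Control. Trim6, Trim14, Trim5 and Trim55 stayed at or under 1.25 CPM per kb in IFNG libraries.

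**Figure D5:**
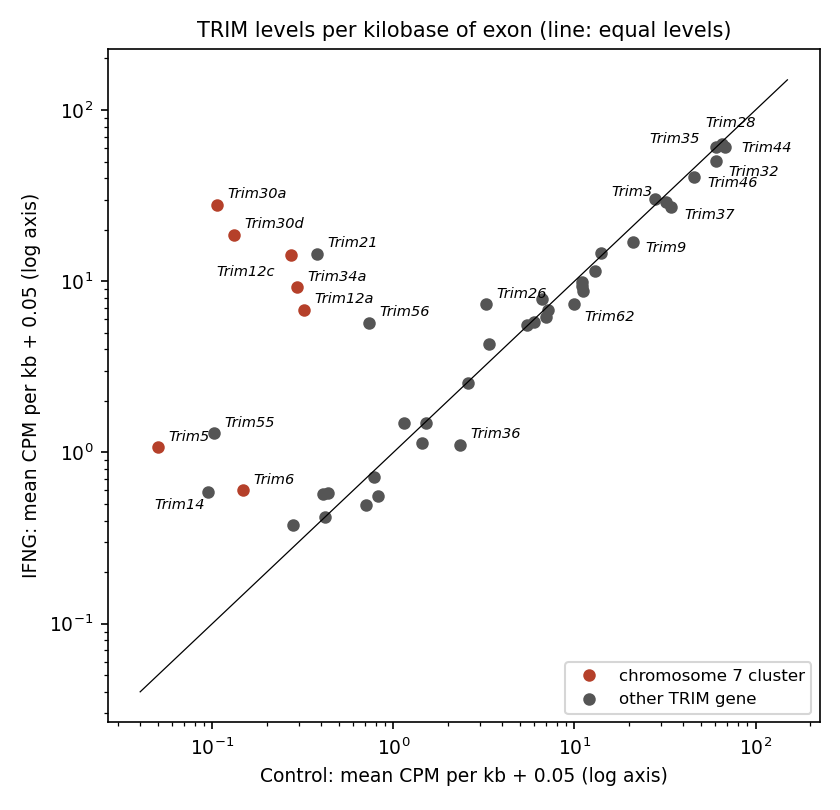
Mean level per kilobase of exon (CPM per kb + 0.05, log axes) of the TRIM members, with IFNG on the vertical and Control on the horizontal axis and a line of equal levels. Most members lie along the line, and the cluster members and Trim21, Trim56, Trim55 and Trim14 lie above it.

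TRIM proteins under other symbols, E2 enzymes and the pathways around the TRIM proteins were read from lists of known genes. Of the 4 tested among 5 relatives under other symbols, 2 were higher and 0 lower, beside 14.3% higher and 9.79% lower over all genes tested. Pml, the organiser of PML nuclear bodies, had lowest, median and highest values of 45.1, 59.3 and 72.2 CPM in IFNG libraries, against 4.65, 5.99 and 6.71 CPM in Control libraries (log2 fold change 3.29 ± 0.14, adjusted p = 2.65e-13). Its groups did not overlap. Mid1, a microtubule-bound ligase, had 0.76 ± 0.18 as log2 fold change (adjusted p = 0.00459) with overlapping groups, and its relative Mid2 had -0.37 ± 0.16 (adjusted p = 0.112).

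Of 13 listed genes of the E2 family, 1 was higher and 5 lower, beside 14.3% higher and 9.79% lower over all genes tested. Ube2l6, the E2 for the ubiquitin-like modifier ISG15, was at 123 ± 13.9 CPM in IFNG libraries, against 6.19 ± 2.11 CPM in Control libraries (mean ± SD, n = 6 each), a log2 fold change of 4.32 ± 0.19 (adjusted p = 2.52e-13). Ube2e3 had -0.54 ± 0.09 as log2 fold change (adjusted p = 1.43e-04) and Ube2k had -0.34 ± 0.09 (adjusted p = 0.00808). Among those that did not pass, Ube2l3 had the highest level per kilobase of exon in IFNG libraries, with a difference of 0.20 ± 0.12 on the log2 scale (adjusted p = 0.241). Over the E2 list the median log2 fold change was -0.21, beside -0.02 for all genes tested. Over the 12 neuronal markers, of which 5 were lower, it was -0.28, and their part in the E2 values was not tested.

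Of 16 genes of RNA and DNA sensing, pathways in which several TRIM proteins act, 10 were higher and 0 lower. The shares over all genes tested were 14.3% higher and 9.79% lower. The RNA sensors Ifih1 and Ddx58 had log2 fold changes of 6.97 ± 0.25 (adjusted p = 1.65e-14) and 4.97 ± 0.20 (adjusted p = 9.93e-14), and the endosomal receptor Tlr3 of 3.57 ± 0.15 (adjusted p = 1.81e-13). The adaptor Traf3 was 1 of 6 that did not pass, with 0.04 ± 0.11 (adjusted p = 0.833). Cgas and Tmem173, which serve DNA sensing, were also among these 6, at low levels. Their log2 fold changes were -0.60 ± 0.38 (adjusted p = 0.283) and 0.89 ± 0.47 (adjusted p = 0.186). Of 11 genes from the interferon-gamma receptor to the promoter, 9 were higher and 0 lower, beside the same shares over all genes. Irf1 had 5.97 ± 0.12 as log2 fold change (adjusted p = 1.35e-17) and Irf8 had 7.30 ± 0.16 (adjusted p = 3.65e-17), while the kinase Jak1 had 0.19 ± 0.09 (adjusted p = 0.161). The median was 0.85 over the sensing list and 2.26 over the receptor list. Astrocyte markers rose beside these lists too, with the summed levels given above, and their part was not tested.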

How the data were processed

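The deposited table holds the authors' unnormalized read counts for each gene in 12 poly(A) libraries, 6 IFNG and 6 Control. Per the submitters' processing notes, STAR 2.4 and DESeq2 were used and the builds GRCm39 and mm10 are named, with no role for any of them. Which counter, strand setting and annotation were used is not given in the sources used here, so reads of near-identical copies and of genes that overlap on opposite strands are uncertain. Symbols, exon lengths and coordinates came from GENCODE M21 (GRCm38), which matched 42462 of 43629 identifiers, and promoter sequences came from RefSeq (GRCm38.p6).

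Counts were fitted over the whole table by edgeR 4.0.16 under R 4.3.3, using TMM scaling, filterByExpr, two-sided quasi-likelihood F-tests and Benjamini-Hochberg adjustment at 0.05 over 15241 genes, with no block. The standard error of a log2 fold change was its size over the root of F. A fold against a group at 0 uses a floor of 3 counts over that group and covers counting error only. Replicate libraries differed by a chi-square of at least 7.40 per gene, so no pair was treated as 1 library deposited in duplicate, which does not show that they are separate cultures. The fit was tested on simulated counts.

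The TRIM members, the lists, the tests and the rule for named genes were chosen with earlier results of these data known. The rule took every cluster member, every other member past the test with a log2 fold change of at least 1 in size, the 5 largest falls and the 5 most abundant per kilobase that did not pass, and from each list the 3 smallest p-values and the most abundant gene that did not pass. Members and list genes named beyond it were chosen after their values were seen. A few genes that these rules would name are not reported here. Alternatives were DESeq2 size factors, library totals, totals without the genes called higher, no filter, at least 1 CPM in 6 libraries, DESeq2 1.42.0, the replicate number as a block, summed paralogues, each library left out, and, chosen after seeing the data, IFNG 5 and Control 4 left out together, and each IFNG library left out of the fold bounds.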

Additional observations from a re-analysis of the deposited data

Results flagged for a closer look

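Single libraries that stood apart from the rest of their group were looked for in 31 TRIM genes, in groups of 6, and 7 of 61 groups held one. Chance gives about 1 in 20 such groups. Trim14 was at 0.848 CPM in Control 5, above the other Control libraries (0 to 0.164 CPM). In IFNG 5, 3 genes were low. Trim37 was at 144 CPM (196.8 to 220.7 CPM in the other IFNG libraries), Trim2 at 158 CPM (221.5 to 247 CPM) and Trim33 at 62.0 CPM (91.8 to 104 CPM). Trim24 was at 57.4 CPM in IFNG 4, above the other IFNG libraries (50.4 to 52.1 CPM). Trim23 was at 77.1 CPM in Control 4 (57.8 to 63.9 CPM in the other Control libraries), and Trim59 at 6.10 CPM in Control 6 (11.02 to 13.56 CPM in the others).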

How the results depend on the processing

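Wherever they were tested, the 12 members that were higher were past the threshold in the same direction (246 of 246 alternative values, adjusted p at most 0.00482). With at least 1 CPM in 6 libraries Trim14 was not tested, and 4 other members were called higher in place of 5. The summed paralogues had no values of their own for Trim12a, Trim12c, Trim30a, Trim30d and Trim34a. The count of other members called lower, 5, was 1 with totals that left out the genes called higher, 3 with no filter, 3 without IFNG 5 and Control 4 together, and 2 to 7 as each library was left out. With those totals the median over all genes tested moved to 0.10 in place of -0.02 on the log2 scale, and 2954 genes were called higher and 750 lower. Calls near the threshold moved, with Trim32, Trim37, Trim62 and Trim9 lost under some alternatives and Trim23, Trim71 and Trim59 gained under others, and the cause was not tested. Log2 fold changes near 0 changed sign under totals without the genes called higher for Trim28 (0.0682), Trim35 (0.11), Trim13 (0.0634) and Trim45 (0.0782). Trim35 also did so with no filter (0.0234), at least 1 CPM in 6 libraries (0.0102) and without IFNG 5 and Control 4 (0.0275), and so did Trim13 under the last (0.00061). As each library was left out, the range was -0.0300 to 0.0296 for Trim35, -0.117 to 0.0353 for Trim13 and -0.117 to 0.0386 for Trim45.

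The labels do not say whether libraries with the same replicate number share a culture or preparation. Deviations of same-numbered libraries from their group means correlated at -0.000964 to 0.124, over 0.1 in 2 of 6 pairs. Of the 6 IFNG libraries, 2 correlated best with the Control library of their own number. Such weak values cannot decide whether the numbers pair the libraries. With the replicate number as a block, 2114 genes were called higher and 1563 lower, the cluster kept 7 of 7 rises, and Trim23 was gained (log2 fold change -0.36, adjusted p = 0.0374).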
